A study of Mus musculus with 22 samples.

Results

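The addition of an antibody against CTLA-4 to entinostat was examined in the granulocytic kind of myeloid-derived suppressor cell (G-MDSC), isolated from mammary tumours of mice, by setting 4 samples treated with entinostat plus anti-CTLA-4 against 4 treated with entinostat alone, 8 of the 22 samples measured. All endogenous genes of the NanoString nCounter mouse myeloid panel were considered in these 8 samples. The samples were chosen by their column names in the deposited table and not by any measured value. Female neu-N mice, 7 to 8 weeks old, carried orthotopic tumours grown out of 50000 cells of NT2.5, a mammary tumour line, and were treated for 3 weeks from day 3 onward. Mice of the first group received entinostat, 5 mg/kg daily by gavage, and anti-CTLA-4, 100 µg per mouse into the peritoneum 2 times a week. Mice of the second group received entinostat at the same dose. Another 4 samples had entinostat with anti-PD-1 at 100 µg per mouse, 4 more had entinostat with both antibodies, and 6 vehicle samples had 0.5% methylcellulose and isotype antibodies. No group had anti-CTLA-4 without entinostat, so its addition was seen only on top of the drug. The labels do not say whether these mice also received the anti-HER2 antibody that was part of some of the studies, nor which isotype antibodies, if any, the mice on entinostat alone were given. Cells were selected with magnetic beads for Ly6G from dissociated tumours. The labels do not tie samples to separate animals, so p-values measure the spread between these samples, which may be technical. The study looked for transcript changes behind an impaired function of G-MDSCs after treatment.

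G-MDSCs are immature or activated neutrophils that gather in tumours and can restrain T cells through arginase, reactive oxygen, prostaglandins and checkpoint ligands. CTLA-4 is an inhibitory receptor of T cells that competes with CD28 for CD80 and CD86, so an antibody to it acts in the first place on T cells. Entinostat inhibits class I histone deacetylases, enzymes that remove acetyl groups from histones and from other proteins, among them transcription factors.

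Among the deposited columns 2 names stood on 2 columns each, and 1 of them belongs to entinostat plus anti-CTLA-4. The 4 samples of that group are therefore called a, 1, b and 3, where a and b are the 2 columns that share a name. Total barcode counts over all genes ran from 165662 to 443821 in entinostat plus anti-CTLA-4 and from 107446 to 162080 in entinostat alone. Over the endogenous genes they averaged 280881 ± 99196 in entinostat plus anti-CTLA-4 and 128472 ± 23211 in entinostat alone (SD, n = 4 each), which differed by an exact permutation test, two-sided (p = 0.0286, the smallest that 4 against 4 allows). One barcode count was worth 0.400 to 1.48 normalized counts in entinostat plus anti-CTLA-4 and 1.77 to 2.32 in entinostat alone. Cartridge, the multi-lane slide of the instrument, and lane were inferred from the column headers, which do not use these words. By these headers all entinostat plus anti-CTLA-4 samples ran on 1 cartridge and all entinostat samples on the other. The samples that had anti-PD-1 as the one antibody added shared the cartridge of entinostat alone. The headers of each cartridge begin with a different number in the form of a date, so cartridge and date cannot be told apart. Testing covered the 420 genes with a mean above 29.3 normalized counts in any of the 5 groups, a limit set at 2 SD over the average log2 negative control. Fold changes are entinostat plus anti-CTLA-4 minus entinostat alone after adding 1 and taking log2, and are given with a standard error (SE). Adjusted p-values are limma's, two-sided, with Benjamini-Hochberg adjustment over the 420 genes, and a gene is called at an adjusted p under 0.05.

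Transcripts of leukocytes, those of neutrophils among them, were lower in entinostat plus anti-CTLA-4 than in entinostat alone, while a small group that included epithelial adhesion genes was higher. Of the 420 genes, 203 (48.3%) were called, 179 (42.6%) lower and 24 (5.71%) higher. The 179 had a median log2 fold change of -1.70, which is 3.24 times lower, and 142 of them were below -1. The 24 had a median of 0.46, and the largest among them was 0.76, for the NADPH oxidase gene Nox4, singled out after its value was seen. Levels in single samples did not overlap between the groups for 84 of the 179 and 8 of the 24, against 22.6% of all tested genes not overlapping and lower and 2.62% not overlapping and higher. Sample a stood apart from its 3 companions, nearer to entinostat alone. Whether its column carries the right name could not be settled, and it enters every fold change below unless it is said to be left out. It was the highest of the 4 for 177 of the 179 genes called lower, lay within or above the range of entinostat alone for 94 of them, and was the lowest for 22 of the 24 called higher. Without sample a the groups did not overlap for 178 of the 179 and 23 of the 24. These genes were called on the same values, so their separation is no further support. The share over all tested genes without sample a is not given here. Without sample a 230 genes were called lower and 36 higher, and all 203 were among them. Leaving out another sample of the same group cut the calls, to 114 lower and 5 higher without sample 1, 119 and 2 without sample b and 133 and 4 without sample 3. Without entinostat sample 1, 2, 3 or 4 the calls were 159 and 13, 138 and 9, 128 and 6, and 190 and 23. With only these 8 samples in the fit they were 130 and 6, with 4 of the 24 rises among them, and with no background filter 207 and 8. Sample a of the group given both antibodies also shares its name with another column, and it ran in the lane between vehicle samples 2 and 4. Vehicle sample 3 has a name of its own that matches its label, but it ran in the lane next to a sample given both antibodies. Only this order of lanes puts the name of vehicle sample 3 in doubt. Without both of these samples the calls were 189 and 25.

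**Figure D1:**
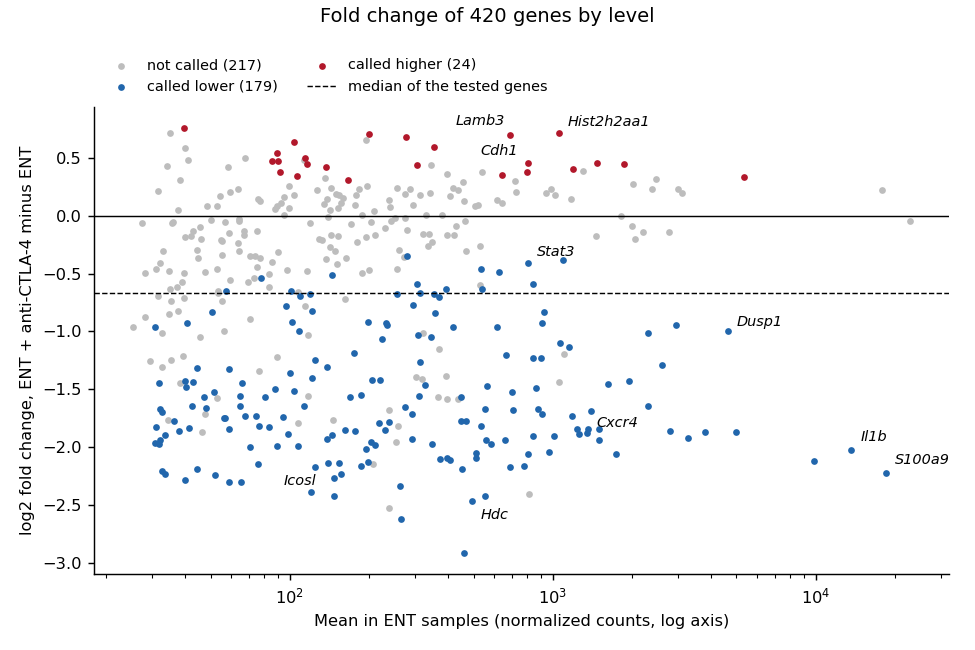
Log2 fold change of entinostat (ENT) plus anti-CTLA-4 against entinostat alone, for each of the 420 tested genes, by its mean normalized count in entinostat alone on a log axis. Blue points are the 179 genes called lower, red points the 24 called higher, and the dashed line is the median of all tested genes, -0.67, on the deposited scaling.

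The directions depend on how samples are scaled to each other. On the deposited values the median fold change of all tested genes was -0.67, so more genes lay below 0 (318) than above it (102). Centring each sample on the median of the tested genes moved this median to 0.047 and called 104 genes lower (24.8%) and 121 higher (28.8%). Quantile normalization called 86 lower and 112 higher (median 0.16), edgeR with TMM factors on the recovered barcode counts 87 and 138 (median 0.072), and DESeq2 101 and 139 (median -0.0050). With the positive controls as the scale no gene was called lower and 223 were called higher (limma, median 1.20, 237 at an unadjusted p under 0.05). A set of 74 genes was called lower, and all 24 of the higher genes were called higher, on the deposited values and after median centring, quantile normalization, TMM and DESeq2 alike. Each fall given below is thus a fall relative to the housekeeping level at which the deposited values were nearly constant, and each rise was called under all of these scalings but most were lost when sample 1, b or 3 was left out. Counts after median centring are given with those of the gene groups. On the deposited values each count is to be read against 42.6% of all tested genes called lower and 5.71% called higher. After median centring these shares were 24.8% and 28.8%.

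**Figure D2:**
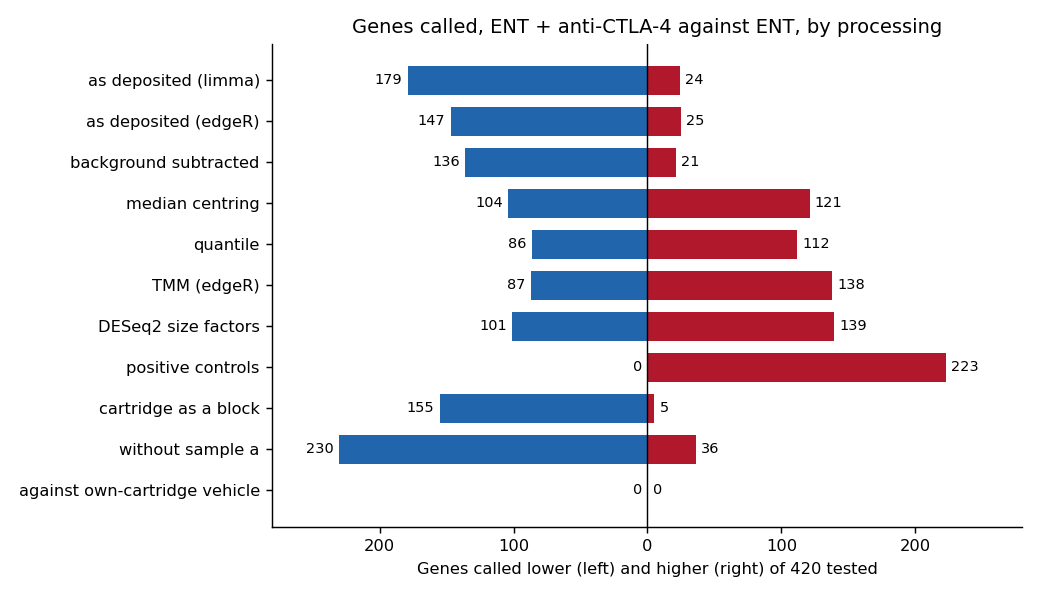
Number of genes called lower (blue, left) and higher (red, right) in entinostat plus anti-CTLA-4 against entinostat alone, of 420 tested, under 11 ways of processing the same samples. The deposited values gave 179 and 24, median centring 104 and 121, and scaling to the positive controls 0 and 223.

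The cartridge and the treatment cannot be told apart within these 8 samples. Vehicle samples lay on both cartridges, 3 on each, and between the cartridges no vehicle gene was called (limma, 21 at an unadjusted p under 0.05), with a median difference of -0.043 over the 179 genes called lower. With cartridge as a block over all 22 samples 155 genes were called lower and 5 higher, 137 and 4 of them among those already called. Only vehicle and the group given both antibodies had samples on both cartridges, so the block was estimated from these alone. Among them are vehicle sample 3, sample a of both antibodies, and a sample of both antibodies with 23296 barcode counts. With each group set against the vehicle samples of its own cartridge, all 179 genes stayed below 0 with a median of -1.61, but none was called (limma, 144 at an unadjusted p under 0.05).

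The calprotectin subunits S100a8 and S100a9, which neutrophils make in large amounts, were among the genes with the largest falls. S100a9 had 12459.7 normalized counts in sample a and 2107, 1959 and 4309 in samples 1, b and 3 of entinostat plus anti-CTLA-4, against 17414, 20641, 24140.2 and 12065 in entinostat samples 1 to 4 (log2 fold change -2.22 ± 0.48 (SE), adjusted p = 0.00279). Sample a was just above the lowest entinostat sample, and the other 3 lay far below all 4 entinostat samples. S100a8 averaged 2980.4 ± 2880.5 normalized counts in entinostat plus anti-CTLA-4 and 9864 ± 2721 in entinostat alone (SD, n = 4 each, as for all means ± SD below), with log2 fold change -2.12 ± 0.50 (SE), adjusted p = 0.00373. Cxcr2, the receptor that draws neutrophils toward CXC chemokines, had 419.5 normalized counts in sample a and 92.3, 71.3 and 164 in samples 1, b and 3 of entinostat plus anti-CTLA-4, against 535, 608, 726 and 468 in entinostat samples 1 to 4. Here all 4 samples lay below all entinostat samples (log2 fold change -1.97 ± 0.42 (SE), adjusted p = 0.00257). Csf3r, the receptor of the neutrophil growth factor G-CSF, did the same, with 607 normalized counts in sample a and 147, 124 and 225 in samples 1, b and 3 of entinostat plus anti-CTLA-4, against 845, 798, 1013 and 722 in entinostat samples 1 to 4 (log2 fold change -1.90 ± 0.41 (SE), adjusted p = 0.00257). Of 13 tested genes of neutrophil granules and maturation, 12 fell and none rose, with a median fold change of -2.12 against -0.67 for all tested genes and 42.6% of them called lower. After median centring 12 were still called lower and 1, not called on the deposited values, was called higher. The 12 include Trem1 (-2.16, adjusted p = 0.00257), a receptor that amplifies neutrophil activation, Hdc (-2.47, adjusted p = 0.00257), the enzyme that makes histamine, Camp (-2.23, adjusted p = 0.0043), the antimicrobial peptide cathelicidin, and Itgam (-1.71, adjusted p = 0.00564), the CD11b chain of the integrin Mac-1. The higher gene after centring was Pglyrp1, a granule protein that binds peptidoglycan, at 0.11 on the deposited values (adjusted p = 0.623).

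Among the genes called with all 4 samples below the entinostat mean of log2 values, Hdc had the lowest fold change, with 316 normalized counts in sample a and 43.2, 51.6 and 82.3 in samples 1, b and 3 of entinostat plus anti-CTLA-4, against 471, 411, 566 and 517 in entinostat samples 1 to 4 (log2 fold change -2.47 ± 0.51 (SE), adjusted p = 0.00257). Its 2 groups did not overlap. Fabp4 (-2.91, adjusted p = 0.048) and Il6 (-2.62, adjusted p = 0.0365) were lower still, but sample a lay above that mean for both. They would join the largest decreases, with Thbd (-2.39, adjusted p = 0.0237), if the mean were taken of normalized counts, and all 3 are named after their values were seen. Ly6g, which encodes the antigen used for the selection, was not tested because its probe lay below the background limit in every group on average, at 4.37 ± 3.2 normalized counts in entinostat plus anti-CTLA-4 and 19.2 ± 10.4 in entinostat alone (SD, n = 4 each). The label of the cells therefore rests on the other neutrophil transcripts, not all of which were high. S100a9 was at 1959 or more in each of the 8 samples. The receptor gene Fpr1 lay under the 29.3 limit in samples 1, b and 3 of entinostat plus anti-CTLA-4. Of the 17 neutrophil genes on the panel 4 were not tested.

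**Figure D3:**
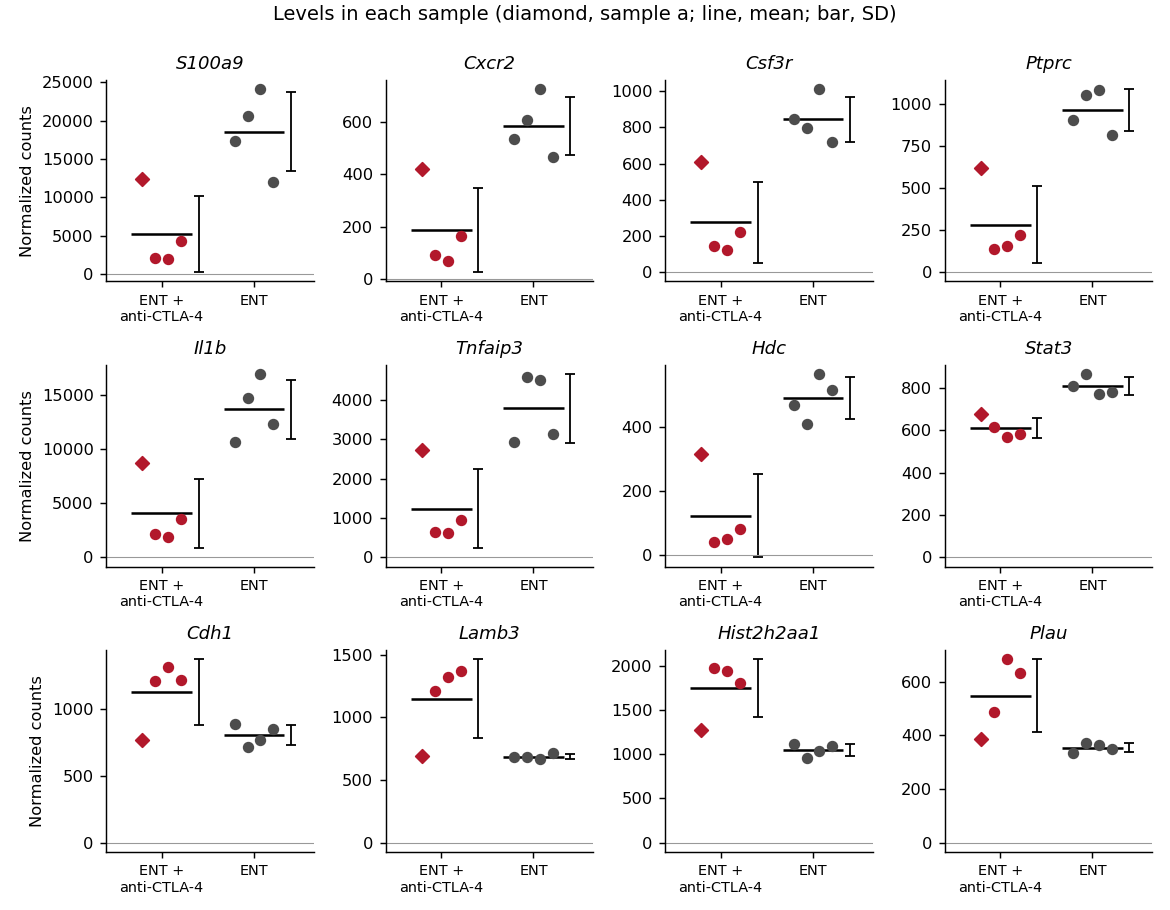
Normalized counts of 12 genes in each of the 4 samples of entinostat (ENT) plus anti-CTLA-4 (red, left; the diamond is sample a) and the 4 of entinostat alone (grey, right), with the group mean (line) and SD (bar). For the first 7 genes, S100a9 to Hdc, samples 1, b and 3 lie below all entinostat samples, Stat3 shows a smaller gap, and for Cdh1, Lamb3, Hist2h2aa1 and Plau samples 1, b and 3 lie above them.

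Genes that leukocytes of all kinds share moved with the neutrophil genes. Ptprc, which encodes CD45, had 620.4 normalized counts in sample a and 136, 155 and 224 in samples 1, b and 3 of entinostat plus anti-CTLA-4, against 905, 1054, 1086 and 816 in entinostat samples 1 to 4 (log2 fold change -2.04 ± 0.40 (SE), adjusted p = 0.00257), with no overlap. All 6 tested pan-leukocyte genes fell, with a median of -1.96, and all 6 were still called lower after median centring. They include Selplg (-2.05, adjusted p = 0.00257), the P-selectin ligand by which leukocytes roll, Was (-1.66, adjusted p = 0.00294), a regulator of actin in blood cells, and Cytip (-1.52, adjusted p = 0.00277), an adhesion regulator. In summed normalized counts the 6 genes came to 571 to 2350 in entinostat plus anti-CTLA-4 and 2779 to 3907 in entinostat alone. In RNA from a bulk isolate fewer cells of a type and less RNA per cell cannot be told apart. As a share of all endogenous counts in a sample, a measure that no scaling factor touches, the neutrophil genes made up 10.1% in sample a and 2.95%, 2.65% and 4.78% in samples 1, b and 3 of entinostat plus anti-CTLA-4, against 9.79% to 14.6% in entinostat alone. The epithelial genes Cdh1, Lamb3, Ptprk and F11r made up 0.916% in sample a and 2.07%, 2.18% and 2.06% in samples 1, b and 3 of entinostat plus anti-CTLA-4, against 0.713% to 0.973% in entinostat alone. Sample a lay within the range of entinostat alone in both shares, and samples 1, b and 3 lay outside them in opposite directions.

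**Figure D4:**
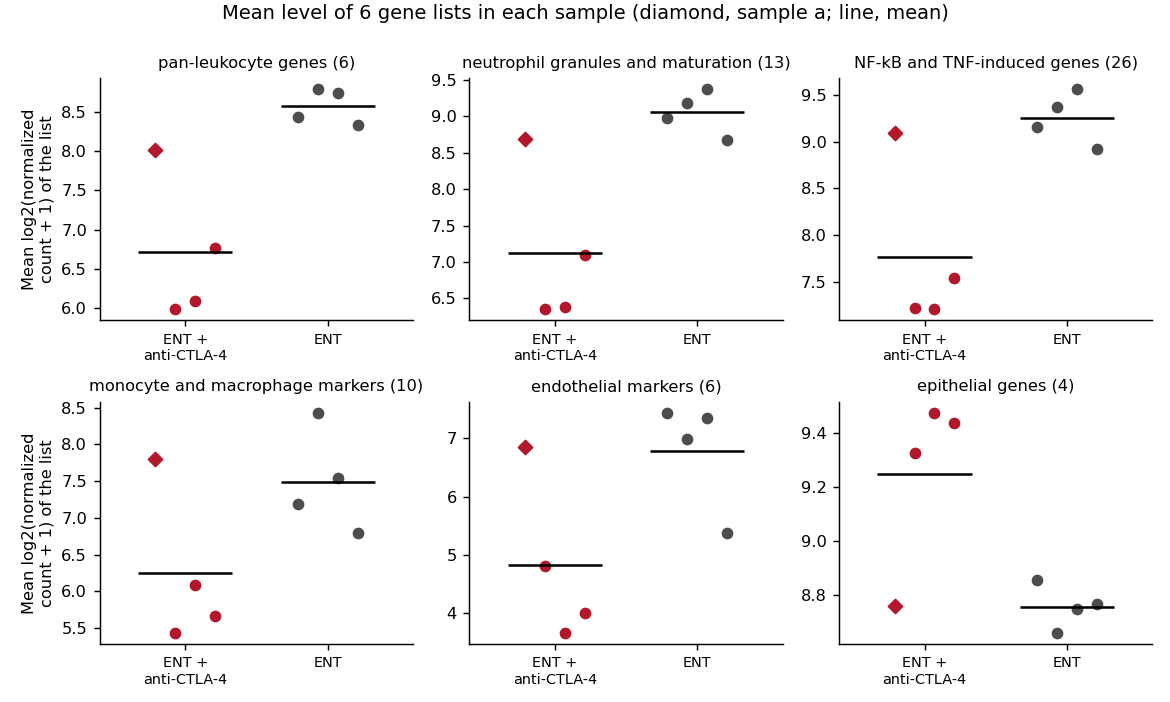
Mean log2(normalized count + 1) over the tested genes of 6 lists (number of genes in brackets) in each sample of entinostat (ENT) plus anti-CTLA-4 (red, left; the diamond is sample a) and of entinostat alone (grey, right); lines are group means. Samples 1, b and 3 lie below all entinostat samples in the pan-leukocyte, neutrophil, NF-kB, macrophage and endothelial lists and above them in the epithelial list.

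Markers of other cell types that the isolates could hold are given with these results, and their part in the calls was not tested gene by gene. Of 10 tested monocyte and macrophage markers none was called, although all 10 had negative fold changes with a median of -1.23, and 5 more on the panel were not tested. C1qb, a complement subunit made by macrophages, had 418 normalized counts in sample a and 60.8, 101 and 62.0 in samples 1, b and 3 of entinostat plus anti-CTLA-4, against 245, 826, 280.4 and 234 in entinostat samples 1 to 4 (adjusted p = 0.102). The groups overlapped, and sample a was above 3 of the 4 entinostat samples. The markers Csf1r (adjusted p = 0.0588), Adgre1 (0.085) and Mrc1 (0.102) were not called either. Median centring called none of the 10 in either direction. Without sample a, 7 of the 10 were called lower, against 230 of all 420 tested genes, so this count does not set the markers apart. Summed over the 15 genes on the panel the level was 674 to 3587 in entinostat plus anti-CTLA-4 and 1707 to 5969 in entinostat alone. All 8 lymphocyte markers on the panel, Ms4a1, Nkg7, Gzma, Ctla4, Icos, Ifng, Pdcd1 and Cd28, lay under the background limit in each of the 8 samples, the highest at 29.2 normalized counts. Of 10 mast cell, basophil and eosinophil markers only Siglecf was tested, and it fell, with 323 normalized counts in sample a and 99.9, 85.2 and 175 in samples 1, b and 3 of entinostat plus anti-CTLA-4, against 443, 594, 646 and 445 in entinostat samples 1 to 4 (log2 fold change -1.82 ± 0.37 (SE), adjusted p = 0.00257). Mast cell Cpa3 and Tpsb2 and eosinophil Epx and Prg2 were under the limit in all 8 samples. Of 3 tested dendritic cell markers Itgax, which neutrophils also carry, was called (-1.83, adjusted p = 0.00737). Batf3 (-0.85, adjusted p = 0.0573) and Cd83 (-1.68, adjusted p = 0.0877) were not. Median centring called 1 of the 3 lower.

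Of 6 endothelial markers 3 fell (50%, near the 42.6% of all tested genes), with a list median of -2.22, and 2 were called lower after median centring. Sele, the endothelial selectin that captures leukocytes, had 119.7 normalized counts in sample a and 22.8, 8.12 and 14.7 in samples 1, b and 3 of entinostat plus anti-CTLA-4, against 182, 123, 215 and 67.5 in entinostat samples 1 to 4 (log2 fold change -2.42 ± 0.73 (SE), adjusted p = 0.0127). Sample a lay inside the range of entinostat alone and the other 3 below it. The phosphatase Ptprb (-2.30, adjusted p = 0.0192) and the junction cadherin Cdh5 (-2.14, adjusted p = 0.033) fell as well, while Selp, which platelets also carry, had -2.53 (adjusted p = 0.0508) and was not called. Hspg2, the basement membrane protein perlecan, was among the 12 largest decreases of genes with all 4 samples below the entinostat mean of log2 values (log2 fold change -2.29 ± 0.62 (SE), adjusted p = 0.00746). Among 7 tested fibroblast and matrix genes, the collagen chain Col1a2 fell (-1.40, adjusted p = 0.0471) and the receptor Pdgfra rose, and Col3a1 (-1.58, adjusted p = 0.0627) and Col11a1 (0.44, adjusted p = 0.0527) were not called. Median centring called none of these lower and 3 higher.

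With the mean of the 4 epithelial genes of each sample as a covariate no gene was called (limma, 62 at an unadjusted p under 0.05), and with that of the pan-leukocyte genes none was either (limma, 36 at an unadjusted p under 0.05). The pan-leukocyte mean ran from 5.98 to 8.02 in entinostat plus anti-CTLA-4 and from 8.34 to 8.79 in entinostat alone on the log2 scale, without overlap. All of these pan-leukocyte genes, and most of the epithelial ones, were themselves called in this comparison. The covariates thus followed the groups, and these fits cannot tell them from the treatment, so no conclusion is drawn from the lost calls.

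Receptors by which neutrophils find their way fell together. Of 10 tested chemokine and chemoattractant receptors 7 fell and none rose, with a median of -1.91, and the same number was called lower after median centring. The formyl peptide receptor Fpr2, which senses bacterial and mitochondrial peptides, had 202 normalized counts in sample a and 23.6, 29.0 and 46.7 in samples 1, b and 3 of entinostat plus anti-CTLA-4, against 239, 278, 311 and 218 in entinostat samples 1 to 4 (log2 fold change -2.33 ± 0.53 (SE), adjusted p = 0.0032). Its relative Fpr1 had 47.3 normalized counts in sample a and 7.99, 6.38 and 9.21 in samples 1, b and 3 of entinostat plus anti-CTLA-4, against 62.0, 65.0, 71.5 and 63.0 in entinostat samples 1 to 4 (log2 fold change -2.30 ± 0.47 (SE), adjusted p = 0.00257). Neither overlapped, although sample a came near entinostat sample 4 for Fpr2. Cxcr4, which holds neutrophils in the bone marrow, averaged 434 ± 322 normalized counts in entinostat plus anti-CTLA-4 and 1353 ± 252 in entinostat alone (log2 fold change -1.87 ± 0.40 (SE), adjusted p = 0.00257). The complement receptor C5ar1 fell as well (log2 fold change -2.06 ± 0.50 (SE), adjusted p = 0.00392), and C3ar1 (-1.56, adjusted p = 0.0684) was not called. Of 12 tested integrins and adhesion genes 9 fell, with a median of -1.84. Median centring called 9 lower and 2 higher. Itga5, a fibronectin receptor chain, had -1.99 (adjusted p = 0.00257) and Itgb2, the common chain of the leukocyte integrins, -2.02 (adjusted p = 0.00403).

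Of the CXC chemokines that attract neutrophils, 3 of 4 tested fell, and median centring called 2 lower. Cxcl2 had 2880.4 normalized counts in sample a and 460.5, 501 and 760.2 in samples 1, b and 3 of entinostat plus anti-CTLA-4, against 2633, 3493, 4447 and 2559 in entinostat samples 1 to 4 (log2 fold change -1.92 ± 0.50 (SE), adjusted p = 0.00564). Sample a lay among the entinostat samples and the other 3 below them. Cxcl3 averaged 34.6 ± 35.1 normalized counts in entinostat plus anti-CTLA-4 and 98.4 ± 6.35 in entinostat alone and did not overlap (log2 fold change -1.89 ± 0.49 (SE), adjusted p = 0.00533). Cxcl1, which tumour and stromal cells also make, had 3486 normalized counts in sample a and 1178, 1073 and 1066 in samples 1, b and 3 of entinostat plus anti-CTLA-4, against 2424, 3279, 3952 and 2075 in entinostat samples 1 to 4 (log2 fold change -0.95 ± 0.35 (SE), adjusted p = 0.037). It was called on the deposited values, but its fold change after median centring was -0.23 (adjusted p = 0.451). Cxcl16, a membrane-bound chemokine, was not called (-0.36, adjusted p = 0.0853). Of 8 tested CC chemokines 3 fell (37.5%, no more than the 42.6% of all tested genes), namely Ccl3 (-1.73, adjusted p = 0.0163), Ccl4 (-1.57, adjusted p = 0.00966) and Ccl7 (-2.002, adjusted p = 0.0412), and Ccl9 was not called (-1.95, adjusted p = 0.0588). Median centring called 2 of the 8 lower.

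Genes induced by NF-kB and TNF formed the longest list and followed the same course. NF-kB is a family of transcription factors held in the cytoplasm by inhibitors of the IkB family and released by signals from TNF, interleukin-1 and microbial products. Of 26 tested genes 22 fell and none rose, 84.6% against 42.6% of all tested genes, with a median of -1.68. After median centring 17 were called lower and 2 higher, with TMM 10 and 3, and with DESeq2 14 and 3. Of all 420 tested genes these scalings called 104 lower and 121 higher, 87 and 138, and 101 and 139 in that order. The deubiquitinase Tnfaip3, a feedback inhibitor that NF-kB induces, had 2729.8 normalized counts in sample a and 659, 620.4 and 960.4 in samples 1, b and 3 of entinostat plus anti-CTLA-4, against 2939, 4586, 4502 and 3148 in entinostat samples 1 to 4 (log2 fold change -1.87 ± 0.42 (SE), adjusted p = 0.0032). Its groups did not overlap, and sample a lay just under the lowest entinostat sample. The inhibitor Nfkbia, which encodes IkB alpha, averaged 1202 ± 784 normalized counts in entinostat plus anti-CTLA-4 and 2614 ± 449 in entinostat alone (log2 fold change -1.29 ± 0.32 (SE), adjusted p = 0.00482). The co-activator Nfkbiz (-1.43, adjusted p = 0.00294), the macrophage growth factor Csf1 (-1.67, adjusted p = 0.00257) and the cytokine Il6 (-2.62, adjusted p = 0.0365) also fell.

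The RefSeq windows of 250 bases before the transcription start (GRCm38.p6) of 4 of these genes are printed because these genes moved together and their windows hold the NF-kB motif searched. They are Nfkbia at chr12:55492648-55492897 on the minus strand, Tnfaip3 at chr10:19015411-19015660 on the minus strand, Cxcl2 at chr5:90903649-90903898 on the plus strand and Cxcl3 at chr5:90785851-90786100 on the plus strand. Each is read 5′ to 3′ on the strand of the gene, and capitals mark matches on either strand to GGG, any 2 bases and TTTCC. For Tnfaip3 the first of 2 listed windows is shown.
Nfkbia: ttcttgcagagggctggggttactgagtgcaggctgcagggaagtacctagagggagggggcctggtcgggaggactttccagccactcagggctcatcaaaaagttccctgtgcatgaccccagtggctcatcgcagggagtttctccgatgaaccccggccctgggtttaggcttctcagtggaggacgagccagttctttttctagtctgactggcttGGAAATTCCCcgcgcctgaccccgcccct
Tnfaip3: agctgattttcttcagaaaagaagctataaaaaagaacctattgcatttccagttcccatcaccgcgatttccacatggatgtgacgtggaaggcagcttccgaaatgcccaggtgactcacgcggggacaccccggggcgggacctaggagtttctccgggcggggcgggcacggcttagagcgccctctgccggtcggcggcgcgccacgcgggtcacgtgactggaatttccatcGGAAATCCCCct
Cxcl2: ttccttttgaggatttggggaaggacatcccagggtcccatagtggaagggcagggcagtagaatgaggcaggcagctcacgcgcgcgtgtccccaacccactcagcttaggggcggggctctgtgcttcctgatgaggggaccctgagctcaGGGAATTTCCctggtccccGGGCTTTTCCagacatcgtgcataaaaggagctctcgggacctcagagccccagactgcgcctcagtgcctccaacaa
Cxcl3: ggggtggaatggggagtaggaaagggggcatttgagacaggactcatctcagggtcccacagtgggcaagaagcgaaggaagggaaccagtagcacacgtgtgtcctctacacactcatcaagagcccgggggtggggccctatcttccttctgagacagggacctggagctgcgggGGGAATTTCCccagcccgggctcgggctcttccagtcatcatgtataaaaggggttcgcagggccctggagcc

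Windows were matched by symbol for 310 of the 420 tested genes and for 21 of the 26 tested NF-kB and TNF-induced genes. This motif stood in 7 of these 21 windows (33.3%), in 5.81% of the windows of all tested genes and in 1.4% of all 27025 genes with a window. The 7 genes were Nfkbia, Tnfaip3, Cxcl1, Cxcl2, Cxcl3, Il6 and Csf1. All 7 fell, as did most tested genes of the list with or without the motif. The list was drawn up as genes that NF-kB and TNF induce, so its share of the motif is not a result of these data. Among tested genes regardless of list, the motif was in 6.52% of the windows of genes called lower and in 5.77% of those of genes not called, and in none of 16 windows of genes called higher. The AP-1 motif TGANTCA, searched on both strands, was in 10.9% of windows of genes called lower, 6.25% of those of genes called higher, 5.13% of those not called and 6.87% of all windows. The core GAGGAA of the myeloid factor PU.1 was in 39.9%, 31.2%, 34.6% and 23.1% of the same sets in that order. These counts describe letters in a window and not binding.

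Most tested genes of the interleukin-1 pathway fell. Il1b, the inflammatory cytokine that is released through the inflammasome, had 8746 normalized counts in sample a and 2123, 1850.3 and 3539 in samples 1, b and 3 of entinostat plus anti-CTLA-4, against 10651, 14776, 16955 and 12378 in entinostat samples 1 to 4 (log2 fold change -2.02 ± 0.44 (SE), adjusted p = 0.00277). All 4 samples lay below all entinostat samples. Of 8 tested genes of the pathway 6 fell, among them the inflammasome sensor Nlrp3 (-1.94, adjusted p = 0.0108), the adaptor Myd88 (-1.46, adjusted p = 0.00371) and Il1a (-1.71, adjusted p = 0.0113). Median centring called 5 lower and 1 higher. Of 10 Toll-like and NOD receptors with their adaptors 7 fell, against 42.6% of all tested genes. After median centring 4 were called lower and 1 higher. The 7 include Tlr6 (-1.50, adjusted p = 0.00257), which senses bacterial lipopeptides together with TLR2, and the fungal glucan receptor Clec7a (-2.10, adjusted p = 0.00353). Of 11 Fc receptor and ITAM signalling genes, which carry signals from antibody-bound targets, 9 fell with a median of -1.78 and 8 were called lower after median centring. The kinase Syk, at the head of this pathway, had 284 normalized counts in sample a and 57.6, 60.9 and 93.3 in samples 1, b and 3 of entinostat plus anti-CTLA-4, against 462, 478, 465 and 409 in entinostat samples 1 to 4 (log2 fold change -2.19 ± 0.46 (SE), adjusted p = 0.00257), without overlap. The exchange factor Vav1 (-2.11, adjusted p = 0.00257) and the kinase Pik3cg (-1.94, adjusted p = 0.00257) were also called without overlap. Olr1, a receptor for oxidized lipoprotein, had -2.24 (adjusted p = 0.00291).

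Of 15 tested effectors by which myeloid cells suppress T cells 13 fell, against 42.6% of all tested genes, with a median of -0.84. After median centring only 3 were called lower, against 24.8% of all tested genes, with a list median of -0.12. Cd274, which encodes PD-L1, had 339.7 normalized counts in sample a and 35.2, 68.4 and 60.2 in samples 1, b and 3 of entinostat plus anti-CTLA-4, against 438, 392, 365 and 198 in entinostat samples 1 to 4 (log2 fold change -1.98 ± 0.71 (SE), adjusted p = 0.0302). Sample a lay inside the range of entinostat alone. Ptgs2, the inducible cyclooxygenase, averaged 882 ± 633 normalized counts in entinostat plus anti-CTLA-4 and 2785 ± 914 in entinostat alone and did not overlap (log2 fold change -1.86 ± 0.46 (SE), adjusted p = 0.00451). Stat3, a transcription factor that supports expansion of these cells, had 675 normalized counts in sample a and 616, 568 and 581 in samples 1, b and 3 of entinostat plus anti-CTLA-4, against 812, 866, 774 and 782 in entinostat samples 1 to 4. The fall was small and without overlap (log2 fold change -0.41 ± 0.12 (SE), adjusted p = 0.0101), and the value was 0.31 after median centring (adjusted p = 0.177). Vegfa, the vascular growth factor (-0.84, adjusted p = 0.0032), Cebpb, a factor of emergency granulopoiesis (-1.02, adjusted p = 0.00352), and Tgfb1 (-0.71, adjusted p = 0.0252) also fell. Their median-centred values were -0.12, -0.30 and 0.012 in that order, none of them called.

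Arg1, the arginase of suppressive myeloid cells, had 25.1 normalized counts in sample a and 21.98, 28.4 and 28.2 in samples 1, b and 3 of entinostat plus anti-CTLA-4, against 31.9, 81.2, 71.5 and 40.5 in entinostat samples 1 to 4. The 2 groups did not overlap, but the gene was not called (log2 fold change -0.99 ± 0.54 (SE), adjusted p = 0.129). Nos2, the inducible nitric oxide synthase, and Il10, a suppressive cytokine, lay below the background limit and were not tested. Nos2 averaged 18.1 ± 9.15 normalized counts in entinostat plus anti-CTLA-4 and 16.4 ± 5.18 in entinostat alone, and Il10 averaged 6.54 ± 3.54 normalized counts in entinostat plus anti-CTLA-4 and 10.8 ± 3.82 in entinostat alone. Of 4 oxidase and itaconate genes 3 fell, against 42.6% of all tested genes, and median centring called 2 lower. Acod1, which makes the anti-inflammatory metabolite itaconate, had 483 normalized counts in sample a and 39.2, 68.4 and 82.3 in samples 1, b and 3 of entinostat plus anti-CTLA-4, against 480.2, 529, 595 and 609 in entinostat samples 1 to 4 (log2 fold change -2.42 ± 0.60 (SE), adjusted p = 0.00448). Cybb (-1.74, adjusted p = 0.0482), a subunit of the phagocyte oxidase, fell as well, and Gch1 (-0.30, adjusted p = 0.293) was not called. Of 7 lipid mediator and histamine genes 5 fell, against 42.6% of all tested genes. The 5 include the leukotriene enzyme Alox5 (-2.13, adjusted p = 0.00257) and the prostaglandin receptor Ptger2 (-2.24, adjusted p = 0.00383). Median centring called 4 of the 7 lower and 1 higher.

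Of 10 co-stimulatory and checkpoint ligands 6 fell, against 42.6% of all tested genes, and none rose, with a median of -1.30. Median centring called 4 lower and 2 higher, against 24.8% and 28.8% of all tested genes. Cd80, a ligand shared by CD28 and CTLA-4, had 90.1 normalized counts in sample a and 22.4, 19.7 and 32.5 in samples 1, b and 3 of entinostat plus anti-CTLA-4, against 147, 128, 179 and 162 in entinostat samples 1 to 4 (log2 fold change -2.14 ± 0.42 (SE), adjusted p = 0.00257), without overlap. Cd86, the other shared ligand, had 68.0 normalized counts in sample a and 11.2, 9.86 and 21.5 in samples 1, b and 3 of entinostat plus anti-CTLA-4, against 49.6, 99.8, 73.4 and 83.2 in entinostat samples 1 to 4 (log2 fold change -1.82 ± 0.61 (SE), adjusted p = 0.0215), and sample a lay within the range of entinostat alone. Icosl, the ligand of ICOS, averaged 38.8 ± 36.4 normalized counts in entinostat plus anti-CTLA-4 and 148 ± 13.1 in entinostat alone (log2 fold change -2.27 ± 0.46 (SE), adjusted p = 0.00257), and Cd40 had -1.67 (adjusted p = 0.0142). None of the 7 genes of MHC class I peptide loading and the immunoproteasome was called, with a median of -0.021. Median centring called 6 of the 7 higher. The transporter Tap1 had -0.61 (adjusted p = 0.0823), the chaperone Calr 0.19 (0.177), Tapbp 0.24 (0.179) and the proteasome activator Psme2 0.20 (0.284). Of 5 MHC class II genes the protease Ctss fell (-1.68, adjusted p = 0.0407). H2-Ab1 had 573 normalized counts in sample a and 39.97, 95.1 and 48.5 in samples 1, b and 3 of entinostat plus anti-CTLA-4, against 431, 631, 303 and 103 in entinostat samples 1 to 4 and was not called (adjusted p = 0.172), nor were Cd74 (0.199) and H2-DMa (0.591). Median centring called none of the 5 lower and 1 higher. Of 8 interferon genes 5 fell, against 42.6% of all tested genes, with a median of -0.87. None was called in either direction after median centring. Irf1 (-0.93, adjusted p = 0.0175), Isg15 (-0.92, 0.0243) and Ifngr1 (-0.68, 0.0163) were among the 5.

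Of 21 cytokine receptor and JAK-STAT genes 17 fell, against 42.6% of all tested genes, with a median of -1.02. After median centring 6 were called lower, against 24.8% of all tested genes. Jak3, the kinase of the common gamma chain receptors, had 97.5 normalized counts in sample a and 58.0, 90.5 and 68.2 in samples 1, b and 3 of entinostat plus anti-CTLA-4, against 174, 188, 179 and 164 in entinostat samples 1 to 4. The 2 groups stood well apart (log2 fold change -1.18 ± 0.18 (SE), adjusted p = 0.00142), and after median centring the value was -0.47 (adjusted p = 0.0663). Il17ra, the interleukin-17 receptor, had -1.06 (adjusted p = 0.00257). In the next 5 groups the share called lower was near or below the 42.6% of all tested genes, so their counts do not set them apart. Of 8 myeloid transcription factors 4 fell (50%), namely Cebpb, Nfil3 (-1.04, adjusted p = 0.00371), Ikzf1 (-1.73, adjusted p = 0.0136) and Cebpd (-1.33, adjusted p = 0.0229), and median centring called 1 lower and 1 higher. Of 14 immediate early and stress genes 6 fell (42.9%) and 2 rose, and after median centring 4 were called in each direction. The 2 that rose, named after their values were seen, were Jun (0.45, adjusted p = 0.0475) and Dusp6 (0.41, adjusted p = 0.0489). The antiproliferative gene Btg2 averaged 639.8 ± 326 normalized counts in entinostat plus anti-CTLA-4 and 1625 ± 282 in entinostat alone (log2 fold change -1.45 ± 0.28 (SE), adjusted p = 0.00257), and Dusp1 (-1.0, adjusted p = 0.00339), a phosphatase of MAP kinases, Nr4a2 (-1.26, adjusted p = 0.00333) and Gadd45b (-1.84, adjusted p = 0.00371) fell too. Of 8 survival and apoptosis genes 4 fell (50%), the inhibitors Birc3 (-2.09, adjusted p = 0.00357) and Birc2 (-0.78, adjusted p = 0.00467) and the death receptors Fas (-1.44, adjusted p = 0.00966) and Tnfrsf1a (-0.46, adjusted p = 0.0182), and median centring called 2 lower and 3 higher. Of 7 hypoxia and angiogenic genes 4 fell (57.1%), among them Prok2 (-1.83, adjusted p = 0.00257), Angpt2 (-1.75, adjusted p = 0.017) and Hif1a (-0.59, adjusted p = 0.00966). Median centring called 2 lower and 2 higher. Of 9 complement genes 3 fell (33.3%), namely C5ar1, Itgam and Itgax, and 3 were called lower after median centring. Of 6 TGF-beta pathway genes Tgfb1 and Skil (-0.38, adjusted p = 0.0179) fell, and none was called lower and 3 higher after median centring, while Tgfbr3 (adjusted p = 0.174) and Smad2 (0.373) were not called on the deposited values.

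The genes that rose did so by small amounts. Hist2h2aa1, a replication-type histone H2A gene, had 1278 normalized counts in sample a and 1979, 1949 and 1811 in samples 1, b and 3 of entinostat plus anti-CTLA-4, against 1118, 963, 1041 and 1090.5 in entinostat samples 1 to 4 (log2 fold change 0.72 ± 0.15 (SE), adjusted p = 0.00257). All 4 samples lay above all entinostat samples. Near-identical copies of histone H2A genes exist, so which copy the probe read is uncertain. Of the 4 histone deacetylase and chromatin genes tested it alone was called. Hdac5 (-0.37, adjusted p = 0.229), Hdac6 (-0.053, 0.832) and Ncor1 (-0.17, 0.348) were not, and median centring called no other of them. Hdac6 was called higher after quantile normalization (limma, adjusted p = 0.0421), with TMM (edgeR, 0.0242) and with DESeq2 (0.0393). Ncor1 was called higher with TMM (edgeR, adjusted p = 0.0471) and with DESeq2 (0.045). Hdac3, a class I enzyme that entinostat inhibits, is a housekeeping gene of the panel and was not tested. It had 213 normalized counts in sample a and 252, 257 and 236 in samples 1, b and 3 of entinostat plus anti-CTLA-4, against 175, 183, 198 and 198 in entinostat samples 1 to 4, without overlap. The 20 housekeeping genes had log2 differences from -0.78 to 0.39 with a mean of 0.020, and 5 of them did not overlap between the groups.

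Of the 4 epithelial genes 3 rose, 75% against 5.71% of all tested genes, and all 4 were called higher after median centring. Lamb3, a laminin chain of epithelial basement membrane, had 689.8 normalized counts in sample a and 1215, 1327 and 1374 in samples 1, b and 3 of entinostat plus anti-CTLA-4, against 686, 680.0, 664 and 719.5 in entinostat samples 1 to 4 (log2 fold change 0.69 ± 0.28 (SE), adjusted p = 0.0491). Sample a lay within the entinostat range. Cdh1, which encodes E-cadherin, had 764 normalized counts in sample a and 1211, 1310.5 and 1216 in samples 1, b and 3 of entinostat plus anti-CTLA-4, against 882, 717, 768 and 849.9 in entinostat samples 1 to 4 (log2 fold change 0.46 ± 0.17 (SE), adjusted p = 0.0348), and again sample a alone overlapped. Ptprk (0.44, adjusted p = 0.0443) rose and F11r, a tight junction protein, was not called (0.38, adjusted p = 0.0718). The hepatocyte growth factor receptor Met (0.64, adjusted p = 0.0203), the urokinase Plau (0.59, 0.0189), the Wnt receptor Fzd6 (0.50, 0.037), the tetraspanin Cd151 (0.44, 0.0175) and the membrane chemokine Cx3cl1 (0.54, 0.0272) rose as well. So did Pdgfra (0.71, 0.0121), Rab3d (0.47, 0.0179) and the calcium-binding protein S100a4 (0.46, 0.0387). S100a4 had 1554 normalized counts in sample a and 1880.3, 2463 and 2346 in samples 1, b and 3 of entinostat plus anti-CTLA-4, against 1479, 1481, 1543 and 1401 in entinostat samples 1 to 4, in contrast to its relatives S100a8 and S100a9. Of 6 mitotic and replication genes the cyclin Ccnb2 rose (0.42, adjusted p = 0.0237) and the cycle inhibitor Cdkn1a fell (-1.23, 0.00257). Top2a (0.36, 0.18) and Birc5 (0.50, 0.0766) were not called, and median centring called 1 lower and 4 higher.

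**Figure D5:**
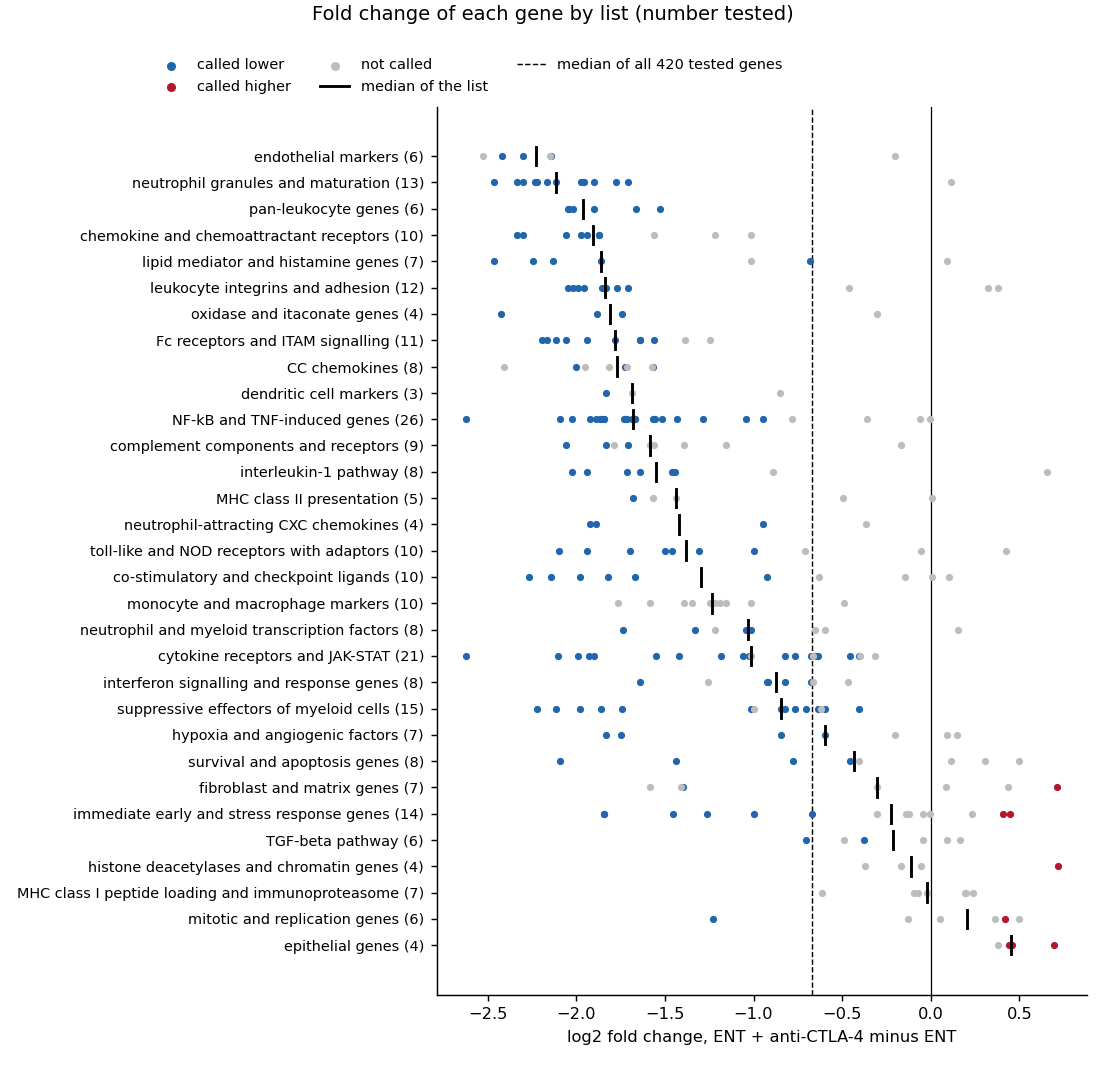
Log2 fold change of every tested gene in 31 lists with at least 3 tested genes (number in brackets), entinostat (ENT) plus anti-CTLA-4 minus entinostat alone, on the deposited scaling. Blue points were called lower, red points higher and grey points not called; short bars are list medians, from -2.22 for the endothelial list to 0.45 for the epithelial list, and the dashed line is the median of all 420 tested genes.

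The ratio of 2 genes within a sample does not depend on any scaling factor. The ratios of 15 genes to Ptprc were compared by exact permutation tests, two-sided, and the family was chosen after the values were seen. The ratio of Cxcr2 to Ptprc was 0.461 to 0.732 in entinostat plus anti-CTLA-4 and 0.573 to 0.669 in entinostat alone (exact permutation p = 0.743). By the same exact permutation test, for Csf3r it was 0.802 to 1.08 in entinostat plus anti-CTLA-4 and 0.758 to 0.933 in entinostat alone (p = 0.314), for S100a9 12.7 to 20.1 in entinostat plus anti-CTLA-4 and 14.8 to 22.2 in entinostat alone (p = 0.429) and for Il1b 12.0 to 15.8 in entinostat plus anti-CTLA-4 and 11.8 to 15.6 in entinostat alone (p = 0.686). The ranges overlapped, so these transcripts were not shown to move apart from Ptprc, and a p of this size does not show that they moved alike. The ratio of Stat3 to Ptprc was 1.09 to 4.53 in entinostat plus anti-CTLA-4 and 0.712 to 0.959 in entinostat alone (exact permutation p = 0.0286), that of Tgfb1 0.533 to 1.43 in entinostat plus anti-CTLA-4 and 0.34 to 0.419 in entinostat alone (p = 0.0286), that of Cebpb 3.03 to 6.73 in entinostat plus anti-CTLA-4 and 2.22 to 2.61 in entinostat alone (p = 0.0286) and that of Cdh1 1.23 to 8.91 in entinostat plus anti-CTLA-4 and 0.681 to 1.04 in entinostat alone (p = 0.0286). For these 4 genes no ratio with anti-CTLA-4 was as low as any without it, which gives the smallest p that 4 against 4 allows. Adjusted over the 15 ratios it came to 0.107, so none passed 0.05. The smallest log2 difference over leaving out each sample in turn was 1.37 for Stat3 and 2.20 for Cdh1. For Vegfa and Arg1 the ratio to Ptprc was higher by 1.20 and 1.02 on the log2 scale (p = 0.0571 and p = 0.114, exact permutation test).

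Other antibody additions shared the same entinostat samples as their reference, so they are given by their own values and not by overlap. Anti-PD-1 added to entinostat gave no call in either direction (0% of genes; limma, 7 at an unadjusted p under 0.05, also 0 by edgeR and DESeq2), with a median of -0.14 over all tested genes. Both antibodies added to entinostat gave none either (0%; limma, 53 at an unadjusted p under 0.05, 0 by edgeR and DESeq2), with a median of -0.24 over all tested genes. Group means of S100a9 were 5209 ± 4952 with anti-CTLA-4 added, 15777 ± 1974 with anti-PD-1 added, 9488 ± 1398 with both added, 18565 ± 5130.5 in entinostat alone and 5879 ± 4373 in vehicle (SD, n = 4, and 6 for vehicle). Hist2h2aa1 averaged 1754 ± 326 with anti-CTLA-4, 1477 ± 64.1 with anti-PD-1, 1397 ± 234 with both, 1053 ± 68.0 with entinostat alone and 1751 ± 157 in vehicle. Set against vehicle, the combination with anti-CTLA-4 gave no call (limma, 6 at an unadjusted p under 0.05, 0 by edgeR and DESeq2). Between entinostat alone and vehicle 152 (36.2%) were called higher and 16 lower. The median fold change there was 0.50 on the deposited values, -0.039 after median centring, -0.20 with TMM and -0.063 with DESeq2. With positive control scaling no gene was called there (limma, 138 at an unadjusted p under 0.05), and against the vehicle of the own cartridge 57 were.

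In the direct comparison of anti-CTLA-4 with anti-PD-1 on top of entinostat, whose groups ran on different cartridges, 124 genes (29.5%) were called lower with anti-CTLA-4 than with anti-PD-1 and 6 (1.43%) higher. With cartridge as a block 2 genes were called (169 at an unadjusted p under 0.05), against the vehicle samples of the own cartridge none was (limma, 91 at an unadjusted p under 0.05), and without sample a 207 were. Siglecf averaged 171 ± 109 in entinostat plus anti-CTLA-4 and 559 ± 64.7 in entinostat plus anti-PD-1 (SD, n = 4 each; log2 difference -1.90 ± 0.37 (SE), adjusted p = 0.00701). The other lowest by p were Btg2 (log2 difference -1.42 ± 0.28 (SE), adjusted p = 0.00701), Pik3cg, Il17ra and Rhog, a small GTPase of leukocyte migration (log2 difference -1.52 ± 0.31 (SE), adjusted p = 0.00701). Higher were Rab3d (log2 difference 0.58 ± 0.15 (SE), adjusted p = 0.0097), Tgfa, a ligand of the epidermal growth factor receptor (log2 difference 0.64 ± 0.19 (SE), adjusted p = 0.0152), Fzd6, Pdgfra and the kinase Fyn.

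Set against entinostat plus both antibodies no gene was called (0%; limma, 115 at an unadjusted p under 0.05, 0 by edgeR and DESeq2, smallest adjusted p 0.148). Without sample a 191 were called, and without sample a of the group with both antibodies 31. Of the named genes with the smallest p, Plau averaged 548 ± 136 with anti-CTLA-4 alone added and 340.1 ± 66.5 with both (SD, n = 4 each; log2 difference 0.67 ± 0.19 (SE), adjusted p = 0.148). Was, Sp4, Pik3cg and Slc16a6 had negative differences and Tgfa, Hist2h2aa1 and Mmp13 positive ones, none of them called.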

How the data were processed

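Deposited values came from the NanoString nCounter mouse myeloid panel run on total RNA of Ly6G-selected tumour cells in 22 samples of 5 groups. They are normalized counts, a signal scaled by the authors. The scaling steps were not given in the sources used here. Limma is named by the submitters' processing notes. Each column of deposited gene values was a set of whole barcode counts times 1 factor (100% of values up to 200 were whole within 0.1 normalized count), and housekeeping geometric means were 172 to 194. Control probes were unscaled.

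Groups came from the labels. Log2(normalized count + 1) of 22 samples was fitted with limma 3.58.1 (R 4.3.3), 5 group means and no covariate. The filter kept 420 endogenous genes above the mean plus 2 SD of 8 negative controls in a group mean. Adjustment was by Benjamini-Hochberg at 0.05. The recovered counts were tested with edgeR 4.0.16 (quasi-likelihood) and DESeq2 1.42.0. Alternatives were other scalings, pseudocount 10, filters, cartridge and replicate blocks, covariates, sample weights and leaving out samples. Scripts were tested on simulated data.

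The samples, gene lists and tests were chosen with earlier results of these data known. Named genes are the 12 largest decreases and increases among called genes with all 4 samples on 1 side of the entinostat mean of log2 values, a fixed set of suppressor genes, up to 4 of each list and 5 per direction of each other contrast by smallest p. Fabp4, Il6, Thbd, Nox4, Jun, Dusp6, Nfkbia and Pglyrp1 fall outside this rule and were named after their values were seen. A few others chosen by it are left out of the text.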

Additional observations from a re-analysis of the deposited data

Results flagged for a closer look

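Of 328 sets of 4 values tested (each named gene reported here or list, in each of the 2 groups), 23 had 1 sample far from the other 3 by Dixon's test, where chance gives about 1 in 20. Sample a of entinostat plus anti-CTLA-4 was the sample in 15 of them. In normalized counts, sample a stood against the range of the other 3 at 38.4 against 5.8 to 6.75 for Ptger2, 115 against 174 to 181 for Fzd6, 331 against 188 to 204 for Tgfb1, 96.0 against 15.99 to 19.6 for Adgre1, 764 against 1211 to 1310.5 for Cdh1. The same held at 87.2 against 14.4 to 19.1 for Cxcl3, 3486 against 1066 to 1178 for Cxcl1, 57.6 against 13.3 to 17.2 for Itga5, 39.9 against 8.79 to 11.1 for Fas, 65.0 against 25.2 to 26.7 for Tgfbr3. In entinostat alone the lone values were 826 for C1qb in sample 2 (the others 234 to 280.4), 22.5 for Cdh5 in sample 4 (the others 86.8 to 104), 63.0 for Itga5 in sample 4 (the others 95.7 to 102), 69.1 for Tgfbr3 in sample 1 (the others 38.2 to 41.8). The rest were 76.6 for Smad2 in sample 2 (the others 101 to 102), 31.5 for Ikzf1 in sample 4 (the others 76.6 to 82.8).

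On the mean log2 level of a list, sample a was high for neutrophil-attracting CXC chemokines (9.15 against 7.49 to 7.71), toll-like and NOD receptors with adaptors (6.95 against 5.42 to 5.68), interferon signalling and response genes (6.84 against 5.67 to 5.82), hypoxia and angiogenic factors (7.07 against 6.45 to 6.52), complement components and receptors (7.90 against 5.68 to 5.99). Entinostat sample 4 stood apart for survival and apoptosis genes (6.32, the others 6.62 to 6.67) and mitotic and replication genes (7.39, the others 7.05 to 7.09).

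The change with anti-CTLA-4 added differed from that with anti-PD-1 added for 130 genes by limma's test of the difference. Since both are set against the same entinostat samples, this is the direct comparison of the 2 antibody groups. Each of them lay on a different cartridge, and 2 genes were called with cartridge as a block and none against the vehicle samples of the own cartridge (limma, 91 at an unadjusted p under 0.05). Among the named genes the log2 difference was Pdgfra 0.61, Fzd6 0.62, Rab3d 0.58, Siglecf -1.90, Pik3cg -1.82, Il17ra -0.97, Btg2 -1.42, Rhog -1.52, Tgfa 0.64, Fyn 0.38.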

How the results depend on the processing

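Calls between entinostat plus anti-CTLA-4 and entinostat alone numbered 203 on the deposited values and 119 to 266 with 1 sample left out (up to 213 without an entinostat sample), with the calls higher numbering 24 and 2 to 36, the lowest counts coming without sample 1 (119), b (121) or 3 (137) of entinostat plus anti-CTLA-4 or sample 3 of entinostat alone (134). They numbered 320 with sample weights, where sample a weighed 0.108, and 0 with the epithelial covariate, the pan-leukocyte covariate or the vehicle of the own cartridge (limma, 62, 36 and 144 at an unadjusted p under 0.05). Against anti-PD-1 added the 130 calls for anti-CTLA-4 added became 69 with edgeR on the deposited scaling, 198 with DESeq2, 2 with the cartridge block, 43 with the epithelial covariate, 0 with the pan-leukocyte covariate or the own-cartridge vehicle, 288 with sample weights and 49 to 207 with 1 sample left out (49 without sample 1 and 52 without sample b of entinostat plus anti-CTLA-4, 127 at most without a sample of the anti-PD-1 group). Against both antibodies added the 0 calls became 185 with positive control scaling, 207 with sample weights, 35 without sample a of both antibodies and vehicle sample 3, and 0 to 191 with 1 sample left out (191 without sample a of entinostat plus anti-CTLA-4, 31 without sample a of both antibodies). Anti-PD-1 added gave 3 calls with sample weights. Both antibodies added gave 3 after quantile normalization, 106 with sample weights and 0 to 3 with 1 sample left out. The difference in barcode counts was 113168 to 194045 with 1 sample left out, with an exact permutation p of 0.0571 without any 1 entinostat sample (161137 at most). The replicate numbers did not pair samples (correlations of deviations 0.16 and -0.27). With the replicate as a block on the numbered samples 211 genes were called against entinostat alone and 73 against both antibodies, against 249 and 214 on the same samples with no block. The fits on numbered samples with no block, against the own-cartridge vehicle and without sample a of both antibodies and vehicle sample 3, and the ratios to Ptprc, were chosen after seeing the data. The causes of these shifts were not tested.

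Some signs below were reversed with a call. With positive control scaling limma called Stat3 (adjusted p = 0.0128), Tgfb1 (0.0321), Ifngr1 (0.0293), Tnfrsf1a (0.0104), Hif1a (0.0247) and Skil (0.0101) higher, all called lower on the deposited values. It also called Cxcl16, Gch1, Tap1, H2-DMa, Tgfbr3, Hdac5, Ncor1 and Hdac6 higher there, none of them called on the deposited values. Of the named genes these took the opposite sign, as log2 fold changes. With DESeq2 they were Stat3 0.31, Cxcl16 0.40, Gch1 0.46, Tap1 0.075, H2-DMa 0.24, Ifngr1 0.011, Tnfrsf1a 0.24, Hif1a 0.10, Skil 0.32, Tgfbr3 0.13, Hdac5 0.31, Ncor1 0.59. Hdac6 0.73 had the opposite sign there too. Against the vehicle of the own cartridge they were Col11a1 -0.048. With the background subtracted they were Gch1 0.18, H2-DMa 0.36, Hdac6 0.37. With TMM factors they were Stat3 0.38, Tgfb1 0.058, Cxcl16 0.47, Gch1 0.54, Tap1 0.15, H2-DMa 0.27, Ifngr1 0.087, Tnfrsf1a 0.31, Hif1a 0.17, Skil 0.39, Tgfbr3 0.22, Hdac5 0.39. Ncor1 0.66, Hdac6 0.80 had the opposite sign there too. With the epithelial covariate they were Lamb3 -0.10, Cybb 0.18, Csf1r 0.13, Adgre1 0.52, Mrc1 0.78, C1qb 0.72, Cd83 0.55, Col1a2 0.18, Col3a1 0.21, Ccl7 0.19, Ccl9 0.56, Ctss 0.23. H2-Ab1 0.96, Cd74 1.17, H2-DMa 1.48, Top2a -0.082, C3ar1 0.38, Tgfbr3 0.13, Hdac5 0.13, Hdac6 0.013 had the opposite sign there too. After median centring they were Stat3 0.31, Tgfb1 0.012, Cxcl16 0.35, Gch1 0.42, Tap1 0.11, H2-DMa 0.22, Ifngr1 0.043, Tnfrsf1a 0.26, Hif1a 0.12, Skil 0.34, Tgfbr3 0.23, Hdac5 0.35. Ncor1 0.55, Hdac6 0.66 had the opposite sign there too. With numbered samples only and no block they were Hdac6 0.0051. With the pan-leukocyte covariate they were Acod1 0.31, Fpr2 0.18, Lamb3 -0.28, Fzd6 -0.11, Ptprk -0.068, S100a8 0.068, Arg1 0.34, Cd274 1.08, Cybb 1.16, Tgfb1 0.31, Csf1r 0.90, Adgre1 1.41. Mrc1 1.63, C1qb 1.56, Itgax 0.27, Cd83 1.56, Cdh5 0.56, Selp 0.083, Col1a2 0.55, Col3a1 0.77, Cdh1 -0.13, Nfkbiz 0.0092, Tnfaip3 0.078, Nlrp3 0.66 had the opposite sign there too. Il1a 0.54, Cxcl3 0.057, Cxcl2 0.28, Cxcl1 0.30, Ccl3 0.63, Ccl7 0.82, Ccl9 1.52, Itgb2 0.29, Itgam 0.32, Clec7a 0.18, Tap1 0.30, Psme2 -0.058 had the opposite sign there too. Ctss 1.14, H2-Ab1 2.15, Cd74 2.32, H2-DMa 2.30, Irf1 0.24, Isg15 0.27, Cd40 0.40, Cd86 0.76, Gadd45b 0.0093, Birc3 0.20, Fas 0.021, Tnfrsf1a 0.028 had the opposite sign there too. Birc5 -0.035, Top2a -0.35, C5ar1 0.27, C3ar1 1.21, Tgfbr3 0.36, Hdac5 0.54, Ikzf1 0.48, Cebpd 0.46, Slc16a6 0.059 had the opposite sign there too. With positive control scaling they were Cxcr4 0.026, Arg1 0.86, Ptgs2 0.040, Stat3 1.49, Cybb 0.11, Tgfb1 1.19, Vegfa 1.05, Cebpb 0.89, Cytip 0.37, Was 0.16, Csf1r 0.88, Adgre1 0.50. Mrc1 0.087, C1qb 0.31, Itgax 0.017, Batf3 0.97, Cd83 0.20, Siglecf 0.080, Col1a2 0.47, Col3a1 0.31, Csf1 0.23, Nfkbiz 0.47, Tnfaip3 0.034, Myd88 0.43 had the opposite sign there too. Il1a 0.19, Cxcl1 0.95, Cxcl16 1.53, Ccl4 0.31, Ccl3 0.17, Itgam 0.18, Tlr6 0.36, Gch1 1.54, Tap1 1.26, Ctss 0.22, H2-Ab1 0.32, Cd74 0.46 had the opposite sign there too. H2-DMa 1.29, Ifngr1 1.22, Irf1 0.97, Isg15 0.95, Cd40 0.092, Cd86 0.017, Jak3 0.70, Il17ra 0.83, Btg2 0.45, Nr4a2 0.63, Dusp1 0.90, Gadd45b 0.056 had the opposite sign there too. Birc2 1.10, Fas 0.36, Tnfrsf1a 1.44, Cdkn1a 0.67, Hif1a 1.31, Angpt2 0.053, C3ar1 0.31, Skil 1.52, Tgfbr3 1.35, Hdac5 1.51, Ncor1 1.72, Hdac6 1.79 had the opposite sign there too. Nfil3 0.85, Ikzf1 0.090, Cebpd 0.51, Rhog 0.23, Sp4 1.02 had the opposite sign there too. After quantile normalization they were Stat3 0.27, Batf3 0.34, Cxcl16 0.28, Gch1 0.67, Tap1 0.14, H2-DMa 0.90, Ifngr1 0.020, Tnfrsf1a 0.23, Hif1a 0.14, Skil 0.21, Tgfbr3 0.48, Hdac5 0.32. Ncor1 0.52, Hdac6 0.87, Sp4 0.10 had the opposite sign there too. With the replicate block they were Smad2 -0.0019. Without sample a they were Hdac6 0.019. With 1 sample left out the log2 difference of the ratio to Ptprc crossed 0 for Cd274 (-0.15 to 0.21), Cxcr2 (-0.013 to 0.21), Il1b (-0.063 to 0.11), S100a8 (-0.19 to 0.075). Further values were -0.049 and -0.12 for Cd274 without anti-CTLA-4 sample b and without entinostat sample 4, and 0.0012 for S100a8 and 0.073 for Il1b without entinostat sample 3.

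Genes near the 29.3 limit rest on few barcode counts in entinostat alone, where 1 count is worth up to 2.32 normalized counts. Scaled like the genes, the negative controls averaged 7.31 to 16.5 in entinostat alone and 1.96 to 8.31 in entinostat plus anti-CTLA-4. This background was thus lower in the direction of the falls, and some falls reached it, as Ptger2 at 5.8 to 6.75 in samples 1, b and 3. With the background subtracted 136 genes were called lower and 21 higher, and 19 of the 24 rises were still called.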
